A study of Bos taurus with 35 samples.

Results

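The reference genes ACTB (ENSBTAG00000026199) and GAPDH (ENSBTAG00000014731) were followed through 34 RNA-seq libraries of bovine fat and muscle. They were chosen because the study's qRT-PCR primer list holds them as reference genes, not for any measured value, and they are 2 of the 24596 genes counted in each library. ACTB encodes beta-actin, the cytoplasmic actin of the cell cortex and of stress fibres, which non-muscle cells make in large amounts. GAPDH encodes glyceraldehyde-3-phosphate dehydrogenase, the glycolytic enzyme that oxidises glyceraldehyde 3-phosphate with NAD+. A reference gene in qRT-PCR stands for the amount of input RNA, so the level of every target gene is read as a ratio to it, and a difference in the reference between tissues enters every such ratio. Skeletal muscle fibres build their contractile apparatus from other actin genes and carry much of the body's glycolytic capacity. Adipocytes use glycolysis to supply glycerol 3-phosphate for triglyceride synthesis.

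The primers show which transcripts the study used as standards. They are written 5′ to 3′, and the capitals mark the last 5 bases at the 3′ end, from which the polymerase extends.
ACTB forward: ggacctctacgccaaCACGG
ACTB reverse: ggagccgccaatcCACAC
GAPDH forward: caagatggtgaaggtcgGAGTG
GAPDH reverse: cgtgggtggaatcatacTGGAA
The ACTB primers had 65% G and C over 20 bases and 66.67% over 18 bases, and the GAPDH primers had 54.55% and 50% over 22 bases each. The levels below come from sequencing counts, not from these primers. The paper's qRT-PCR compared omental, subcutaneous and intramuscular fat and scaled each target to ACTB and, separately, to GAPDH. Its qRT-PCR values include no muscle, so the muscle comparisons below do not bear on them.

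The libraries came from omental (O), subcutaneous (S) and intramuscular (I) fat and from muscle (M) of 9 Hanwoo cattle, a Korean beef breed, all aged 30 months and kept at the same station. By the labels, females were replicates 1, 4 and 7, castrated males 2, 5 and 8, and males 3, 6 and 9. The paper instead calls its animals steers, and this difference could not be settled here. The labels name no treatment, and libraries with the same replicate number are labelled as coming from the same animal. There were 9 O, 9 S, 8 I and 8 M libraries, without I of replicate 9, not used here, and without M of replicate 7.
One label did not hold. In 4 gene rows with no count in any O or S library labelled female and at least 10 in every other O and S library, the library labelled muscle replicate 4, female, held 495 counts. The other muscle libraries held 0 in the female replicate 1 and 357 to 728 in castrated males and males. The comparisons, spreads and rescaled counts that involve muscle are therefore also given without it.
The counts assigned to genes summed to 3726376 to 7184022 in a library (median 5428462). The lowest counts were 1994 for ACTB and 1347 for GAPDH, at which counting error alone was 2.24% and 2.72%, well below the spread between libraries of a tissue. Reads with more than 1 place in the genome were counted apart from genes, at 6.65% to 15.4% of all counts. The 3 highest shares were in I replicate 5 (15.4%), muscle replicate 8 (14.5%) and I replicate 4 (13.1%), against at most 9.92% in the other I libraries and 11.3% in the other muscle libraries. ACTB has close relatives in the other actin genes and GAPDH has processed copies in mammalian genomes, so the counts of both genes may miss reads, and a primer pair could measure a different set of transcripts.
In bulk tissue a lower level may come from fewer cells of a type or from less of the RNA per cell, and these cannot be told apart here. The tissue labels were checked against the few markers that could be matched by name. Muscle libraries held 21907 to 51135 CPM of TPM2, a tropomyosin of the contractile filament, against 70.7 to 262 in O and S and 839 to 2023 in I. FASN, the fatty acid synthase of lipid-making cells, was 1062 to 8344 CPM in O and S, 217 to 1470 in I and 49.2 to 123 in M. Summed CPM of the myeloid markers CD163, ITGAM and CCR2 ranged from 379 to 1101 in O, 243 to 1173 in S, 68.0 to 202 in I and 5.20 to 35.6 in M.

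ACTB was among the most counted genes of fat and lower in muscle. Levels are CPM, the count of a gene as a share of the library total times 1e+06, with library totals scaled by TMM over all 34 libraries, which sets the typical gene equal between libraries, and errors are SD over animals. In O the level was 2698 CPM ± 440 (n = 9), with 2682, 2330, 2232, 2745, 2579, 3050, 3279, 2095 and 3291 in replicates 1 to 9. In S it was 2544 CPM ± 588 (n = 9), with 2265, 2145, 3258, 2338, 2060, 3137, 3491, 1873 and 2331. The O and S libraries covered nearly the same range, and replicate 8 was the lowest animal in both depots.
In I the level of ACTB was 3784 CPM ± 958 (n = 8), with 2684, 3969, 3073, 5058, 5354, 3138, 3423 and 3573 in replicates 1 to 8. Replicates 4 and 5 stood above every other library of the series, while the lowest I library lay inside the range of O and S. These 2 libraries also had the highest shares of reads with more than 1 place among the I libraries, and the part of that in their ACTB level was not tested. Without them the level in I was 3310 CPM ± 446 (n = 6). In M the level was 1287 CPM ± 647 (n = 8), with 830, 1078, 1693, 1150, 888, 945, 2743 and 972 in replicates 1, 2, 3, 4, 5, 6, 8 and 9. The level was 1307 CPM ± 696 (n = 7) without the library labelled muscle replicate 4. Muscle replicate 8, the library with the fewest counts on genes, alone reached the levels of fat, and the other 7 muscle libraries were below every fat library.
By count and without correction for gene length, ACTB ranked 9 to 22 among all genes of an O library, 11 to 28 in S, 6 to 18 in I and 48 to 206 in M. Its share of the counts on genes was 0.227% to 0.566% in fat and 0.0506% to 0.205% in muscle.

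GAPDH ran the other way, low in fat and high in muscle. In O it was 342 CPM ± 85.6 (n = 9), with 334, 297, 239, 254, 361, 393, 481, 270 and 445 in replicates 1 to 9. In S it was 409 CPM ± 91.0 (n = 9), with 415, 315, 397, 373, 389, 478, 600, 291 and 423. The S value lay above the O value of the same animal in 8 of 9 animals, although the ranges of the depots overlapped.
In I the level of GAPDH was 555 CPM ± 151 (n = 8), with 473, 757, 352, 428, 774, 570, 602 and 486 in replicates 1 to 8. In M it was 7561 CPM ± 2942 (n = 8), with 6575, 6025, 5087, 10254, 4388, 12786, 5887 and 9485 in replicates 1, 2, 3, 4, 5, 6, 8 and 9. It was 7176 CPM ± 2952 (n = 7) without the library labelled muscle replicate 4. The lowest muscle library was above the highest fat library by several fold, and the muscle libraries themselves spanned 2.91-fold.
GAPDH ranked 168 to 514 by count in fat libraries and 16 to 46 in muscle. It took 0.0308% to 0.0818% of the counts on genes in fat and 0.279% to 0.736% in muscle.

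**Figure D1:**
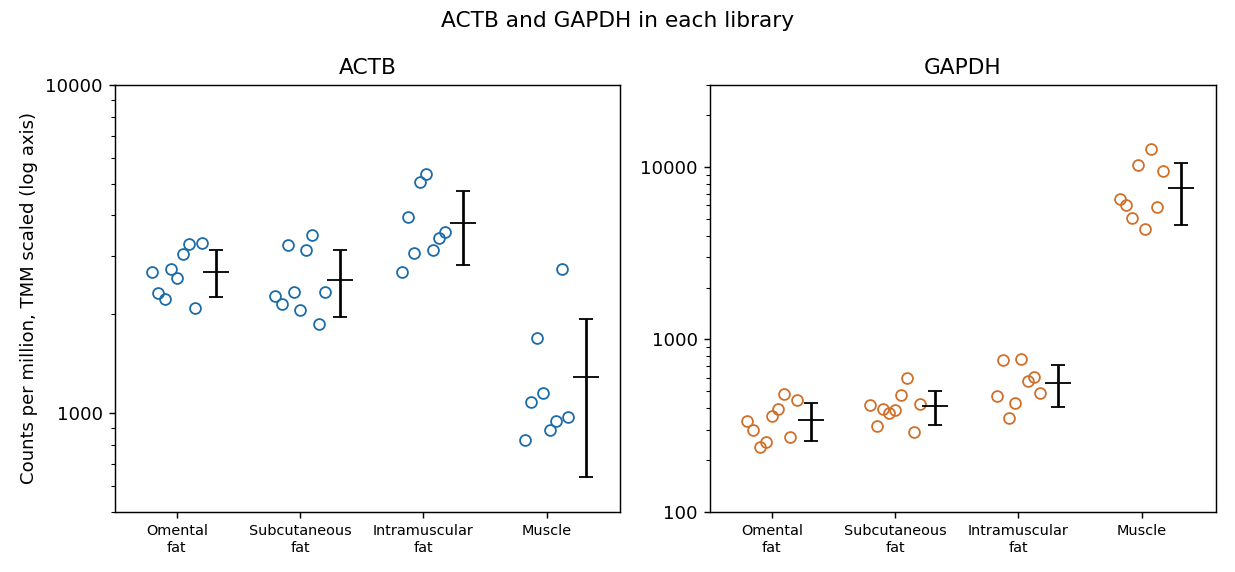
Level of ACTB (left) and GAPDH (right) in CPM with TMM scaling on log axes of different range, by tissue, with 1 circle for each library in the order of the replicates and the mean ± SD in black at its side. The muscle libraries of GAPDH, at 4388 to 12786 CPM, lie above all fat libraries, and muscle replicate 8 of ACTB, at 2743 CPM, lies among the fat libraries.

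Each pair of tissues was compared with edgeR's quasi-likelihood test over all genes that passed a filter on low counts, and a gene was called at a Benjamini-Hochberg adjusted p (FDR) under 0.01. Both genes passed the filter in all 6 pairs. Log2 fold changes are given with their standard error (SE) and are positive where the first tissue is higher.
GAPDH was higher in muscle than in every fat depot. Its log2 fold change was 4.42 (SE 0.26, adjusted p = 4.98e-12) against O, 3.77 (SE 0.31, adjusted p = 2.99e-09) against I and 4.18 (SE 0.26, adjusted p = 1.08e-11) against S. Muscle was above the fat depot in 8 of 8, 7 of 7 and 8 of 8 animals. These counts pair libraries by label, the one labelled muscle replicate 4 included. Without that library the log2 fold changes were 4.35, 3.56 and 4.10.
ACTB was lower in muscle than in every fat depot. Its log2 fold change was -1.14 (SE 0.22, adjusted p = 0.000119) against O, -1.56 (SE 0.28, adjusted p = 5.02e-05) against I and -1.02 (SE 0.24, adjusted p = 0.000778) against S. Muscle was below the fat depot in 7 of 8, 7 of 7 and 7 of 8 animals, again paired by label. Without the library labelled muscle replicate 4 the values were -1.11, -1.68 and -1.01, and without muscle replicate 8 they were -1.37, -1.95 and -1.28, all still called.
Such calls were common in these pairs. Of the genes tested, 63.4% were called in M against O, 59.8% in M against I and 62.7% in M against S. GAPDH was nearer the extreme than ACTB, ranking 674 of 12878, 547 of 12447 and 649 of 12707 genes by the size of the fold change, where ACTB ranked 5219, 3506 and 5712. Without the library labelled muscle replicate 4, 61.4%, 56.9% and 60.5% of genes were called, GAPDH ranked 712, 676 and 686 and ACTB 5400, 3365 and 5849. Ranges of CPM that do not overlap, as for GAPDH, were found for 34.9%, 29.9% and 34.7% of the genes tested in these 3 pairs.
The size of the muscle differences depended on the library scaling. TMM factors were lower in muscle, and with the library total alone the median log2 fold change of all genes tested moved to -0.96 against O, -0.79 against I and -0.94 against S. On that scale ACTB was -1.97, -2.29 and -1.86 and GAPDH 3.49, 2.96 and 3.25, with the same directions and calls.

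Between the fat depots the 2 genes differed far less, and the calls were close to the threshold. In O against I, GAPDH was lower in O, with a log2 fold change of -0.72 (SE 0.18, adjusted p = 0.00243), and in all 8 animals with both libraries. ACTB gave -0.51 (SE 0.16, adjusted p = 0.0133), which was not called, although O was below I in the same 8 animals, and the value was 0.19 with libraries scaled to GAPDH alone. With the library total alone ACTB gave -0.31 (adjusted p = 0.0965, edgeR). On that scale O was above I in replicates 1 (0.312% against 0.289% of the counts on genes) and 6 (0.361% against 0.349%). In this pair 32.8% of all genes tested were called. The call of GAPDH was lost with the library total alone (adjusted p = 0.0126) and without replicate 2 (adjusted p = 0.0122), and ACTB was called with the likelihood ratio test (adjusted p = 0.00521) and with DESeq2 (adjusted p = 0.00173). Without I replicates 4 and 5, ACTB gave -0.32 (adjusted p = 0.0502) and GAPDH -0.69 (adjusted p = 0.00405).
In I against S, ACTB was higher in I, with a log2 fold change of 0.61 (SE 0.18, adjusted p = 0.00889), and in 6 of 8 animals. GAPDH gave 0.47 (SE 0.17, adjusted p = 0.0308), which was not called, with I above S in 7 of 8 animals, and the value was -0.11 with libraries scaled to ACTB alone. These animal counts hold with TMM and include near ties. ACTB in replicate 6 was 3138 CPM in I and 3137 in S, and GAPDH in replicate 7 was 602 and 600. By share of the counts on genes, ACTB was lower in I in replicates 3, 6 and 7, and GAPDH in replicates 1, 3 and 7. In this pair 32.7% of all genes tested were called. With the animal as a replicate block, ACTB was no longer called (adjusted p = 0.0412), and the call was also lost without any 1 of replicates 1, 2, 4, 5, 8 and 9, with adjusted p of up to 0.0311. Without I replicates 4 and 5, ACTB gave 0.41 (adjusted p = 0.0439) and GAPDH 0.43 (adjusted p = 0.0469), neither of them called.
In O against S neither gene was called. ACTB gave 0.08 (SE 0.14, adjusted p = 0.814) and GAPDH -0.26 (SE 0.15, adjusted p = 0.36), in the pair with the fewest calls, 3.32% of the genes tested. With the animal as a replicate block the number of genes called in this pair rose from 431 to 1067, and GAPDH stayed above the threshold at an adjusted p of 0.0542.
In order of level, ACTB thus ran I, O, S, M, where the neighbours O and S, and I and O, did not pass the test. GAPDH ran M, I, S, O, where I and S, and S and O, did not pass, although I and O did.

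**Figure D2:**
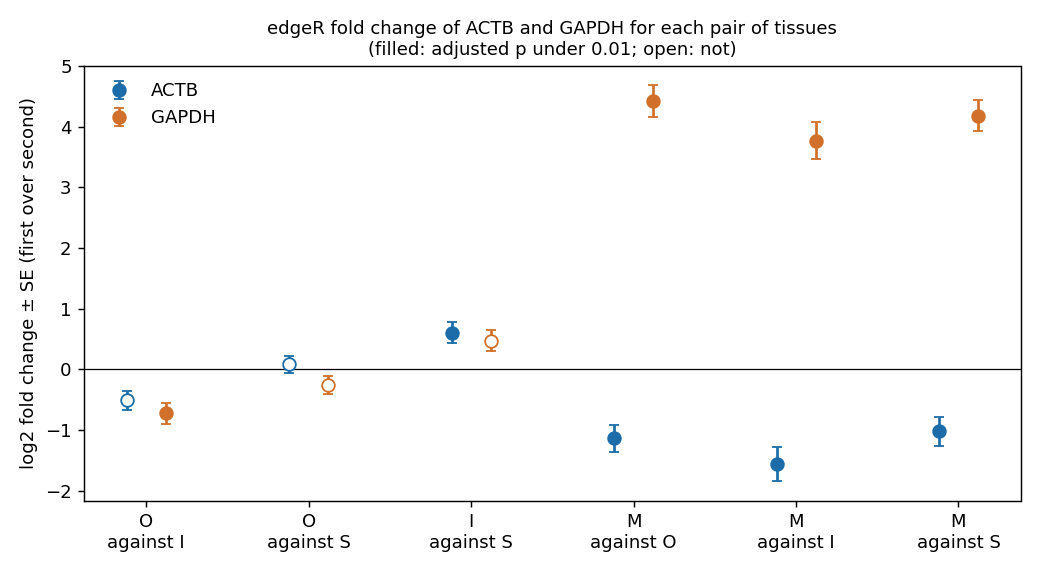
Log2 fold change (vertical axis, first tissue over second) of ACTB in blue and GAPDH in orange for each pair of tissues, from edgeR, with bars for the SE. Filled points passed an adjusted p under 0.01, and in the 3 pairs with muscle GAPDH lies at 3.77 to 4.42 and ACTB at -1.56 to -1.02.

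The ratio of the 2 genes within a library needs no library scaling. It is a ratio of counts, not corrected for gene length, so only its differences between libraries are read. There were 0.126 ± 0.0166 GAPDH counts per ACTB count in O (n = 9), 0.162 ± 0.0212 in S (n = 9), 0.151 ± 0.0374 in I (n = 8) and 6.98 ± 3.79 in M (n = 8), or 6.70 ± 4.01 without the library labelled muscle replicate 4 (n = 7). In fat the lowest ratio was 0.0846, in I replicate 4, and the highest 0.191, in I replicate 2, so I held both extremes of fat. Muscle ran from 2.15 in replicate 8 to 13.5 in replicate 6, and the whole series spanned 160-fold.
I replicate 4 also had the lowest FASN (217 CPM) and DGAT2 (182 CPM, an enzyme of triglyceride synthesis) of the I libraries. TPM2 at 1684 CPM was inside their range and above their median of 1454. DUSP27, another muscle gene, was 2.06 CPM, inside their range of 1.05 to 25.8 but below their median of 8.55. The summed myeloid markers were the lowest of the I libraries at 68.0 CPM, although CD163 and ITGAM alone were not. The part of these in its ratio was not tested.
Exact two-sided permutation tests of the mean log2 ratio were adjusted over the 6 pairs of tissues and read at 0.05. The ratio was higher in muscle by 5.59 on the log2 scale against O (48.1-fold, SE 0.32, adjusted p = 0.000123, n = 8 and 9), by 5.36 against I (41.1-fold, SE 0.35, adjusted p = 0.000311, n = 8 and 8) and by 5.22 against S (37.2-fold, SE 0.32, adjusted p = 0.000123, n = 8 and 9). The unadjusted p, 4.11e-05, 0.000155 and 4.11e-05 in these exact tests, were the smallest that these numbers of libraries allow. Without the library labelled muscle replicate 4 the folds were 45.4, 38.8 and 35.2, and without muscle replicate 8 they were 55.7, 47.6 and 43.1.
Among the fat depots, the ratio was 1.29-fold higher in S than in O (log2 difference 0.37 in size, SE 0.095, exact permutation p = 0.00115, adjusted p = 0.00173), and in 9 of 9 animals, although neither gene alone was called in that pair. With signs flipped within animals, the exact permutation p was 0.00391, the smallest that 9 animals allow, and the adjusted p 0.0156. The ratio in I did not pass against O (I 1.17-fold of O, exact permutation adjusted p = 0.191) or against S (I 0.906-fold of S, exact permutation adjusted p = 0.381). Without replicate 4 the difference between O and I passed (exact permutation adjusted p = 0.0293), as it did without I replicates 4 and 5 (I 1.28-fold of O, exact permutation adjusted p = 0.0192). It did not pass with any other animal left out (exact permutation adjusted p = 0.190 to 0.344). I replicate 4 held the lowest ratio of fat, so leaving it out raises the mean of I. The runs without it are thus no separate support for a difference.

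**Figure D3:**
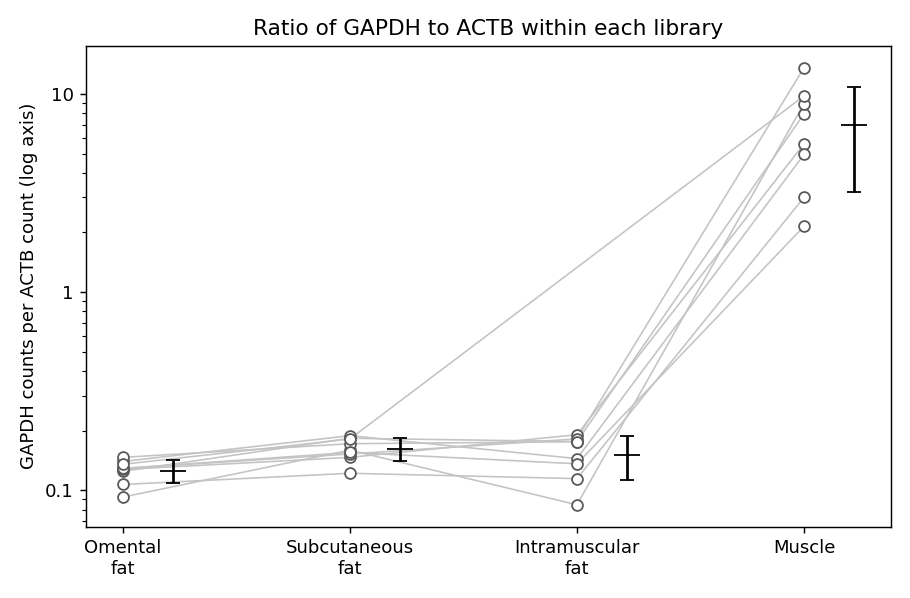
GAPDH counts per ACTB count (log axis) in each library by tissue, with grey lines joining libraries labelled as the same animal and the mean ± SD in black at the side of each tissue. Fat libraries lie between 0.0846 and 0.191 and muscle libraries between 2.15 and 13.5.

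How steady each gene was is shown by the SD of log2 CPM and by its place among the 9866 genes with a mean of at least 10 CPM. In O the SD of ACTB was 0.24, with 30.7% of genes steadier, and in S and I it was 0.32 (51.5%) and 0.35 (41.9%). The SD of GAPDH was 0.36 in O (64.0% of genes steadier), 0.31 in S (48.1%) and 0.39 in I (51.8%). Within each fat depot both genes thus varied about as much between animals as the median gene, whose SD was 0.30 in O, 0.32 in S and 0.39 in I.
Muscle was the least steady tissue for both, with an SD of 0.58 for ACTB (72.8% of genes steadier) and 0.54 for GAPDH (67.2%). Without replicate 8 the SD of ACTB in muscle was 0.34 (46.1%) and that of GAPDH 0.57 (81.6%). The mean of both log levels, the usual form of a combined standard, had an SD of 0.34 in muscle (31.3%). Without replicate 4 the SDs in muscle were 0.63 for ACTB (75.6%), 0.53 for GAPDH (63.9%) and 0.35 for their mean (32.0%).
Across tissues the genes parted. Over the 26 fat libraries the SD was 0.38 for ACTB (41.7% of genes steadier) and 0.44 for GAPDH (53.6%). Over all 34 libraries it was 0.70 for ACTB (58.2%), 1.83 for GAPDH (94.2%) and 0.71 for the mean of both (59.7%), and 0.68, 1.74 and 0.68 without the library labelled muscle replicate 4. With the library total alone the SDs over all 34 libraries were 1.03, 1.44 and 0.40, with 73.6%, 87.7% and 15.0% of genes steadier, so the standing of the combined standard across tissues rested on the scaling.
Differences between the 4 tissues held 71.9% of the variance of log2 CPM of ACTB and 95.6% of that of GAPDH (69.9% and 95.2% without the library labelled muscle replicate 4). Among the 3 fat depots alone the shares were 41.8% and 41.7%.

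**Figure D4:**
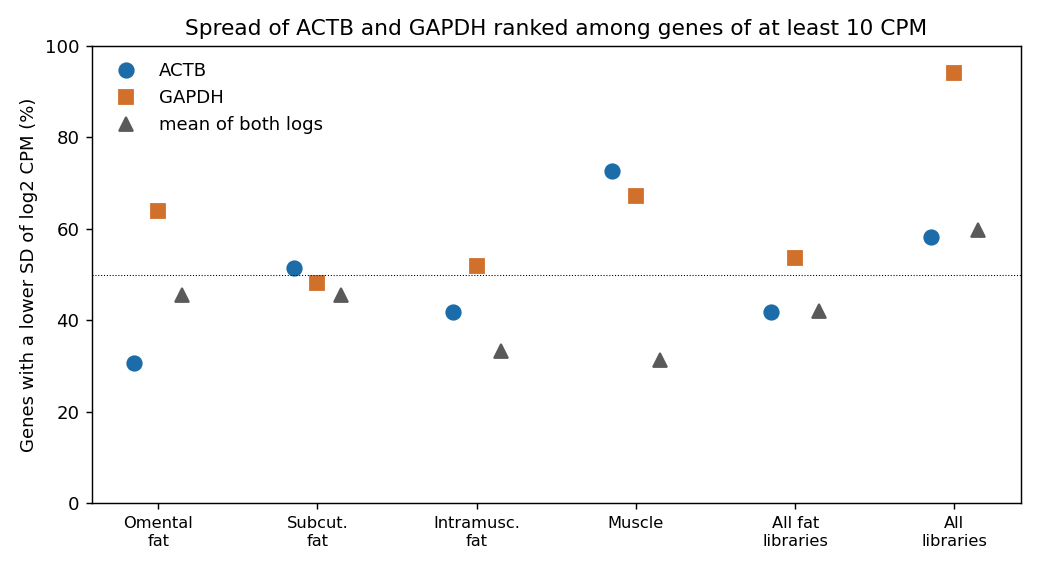
Share of the 9866 genes with a mean of at least 10 CPM that had a lower SD of log2 CPM (vertical axis, percent) than ACTB, GAPDH or the mean of both logs, within each tissue, over the fat libraries and over all libraries. The dotted line marks the median gene, and GAPDH over all libraries stands at 94.2%.

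For scale, among the 2075 genes with a mean of at least 100 CPM, 1012 were steadier than ACTB and 1847 steadier than GAPDH over all libraries. The steadiest were ENSBTAG00000002510, with an SD of 0.12 and a range of 169 to 239 CPM, and ENSBTAG00000015308, with an SD of 0.15 and a range of 98.1 to 156 CPM. The tables used here do not pair these identifiers with names. Their low spread was the reason they were picked and is not a test.
The genes whose pattern was most like that of ACTB over the 34 libraries were ENSBTAG00000019604 (Pearson r = 0.96) and ENSBTAG00000003228 (r = 0.95), out of 9865 genes. For GAPDH they were ENSBTAG00000019782 (r = 0.99) and ENSBTAG00000013799 (r = 0.98). Genes with r over 0.9 numbered 28 for ACTB and 791 for GAPDH, and ACTB with GAPDH gave r = -0.71. Libraries of the same tissue share their level in these correlations, so they mostly describe the step between fat and muscle. Of the genes in the primer list, the muscle genes DUSP27 (r = 0.94) and TPM2 (r = 0.93) followed GAPDH.

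Within a tissue, ACTB and GAPDH were set against each other across animals. In O they gave r = 0.84 (exact permutation p = 0.00654, adjusted p = 0.0523; Spearman rho = 0.77, exact permutation p = 0.0214, adjusted p = 0.166; n = 9) and in S r = 0.80 (exact permutation p = 0.00618, adjusted p = 0.0523; rho = 0.73, exact permutation p = 0.0311, adjusted p = 0.166; n = 9). Without the 2 animals farthest from the median ACTB level, r was 0.80 in O and 0.82 in S. In I r was 0.41 (exact permutation p = 0.306, rho = 0.52 with p = 0.197, n = 8) and in M -0.28 (exact permutation p = 0.518, rho = -0.17 with p = 0.703, n = 8). Without the 2 animals farthest from the median, r was 0.64 in I and 0.35 in M, so the sign in M turned. In M, r was -0.29 without the library labelled muscle replicate 4 (exact permutation p = 0.533, n = 7). None of the 16 relations computed passed 0.05 after adjustment, the other 12 setting a gene in one tissue against itself in another tissue of the same animals. The closest of those were GAPDH in O with S (r = 0.73, exact permutation p = 0.0236, adjusted p = 0.126, rho = 0.73, n = 9) and ACTB in M with O (r = -0.73, exact permutation p = 0.0344, adjusted p = 0.138, rho = -0.55, n = 8). The latter was r = -0.14 without the 2 animals farthest from the median and so rested on them. ACTB in M with I turned from r = -0.10 (n = 7) to 0.51 without its 2 farthest animals. Without the library labelled muscle replicate 4, GAPDH in M with O gave r = 0.63 (exact permutation p = 0.128, n = 7), against 0.37 with it (exact permutation p = 0.359, n = 8). The former was -0.12 without its 2 farthest animals and so rested on them.
Sex as labelled was compared on the mean of an animal's O and S libraries, with 3 animals of each kind. Log2 CPM of ACTB was 11.43 ± 0.25 in females, 11.08 ± 0.12 in castrated males and 11.48 ± 0.11 in males (exact permutation p = 0.0786, adjusted p = 0.236). GAPDH was 8.63 ± 0.41, 8.31 ± 0.21 and 8.60 ± 0.29 in the same order (exact permutation p = 0.418, adjusted p = 0.627), and the log2 ratio gave an exact permutation p of 0.782. No difference between the sexes passed, and the smallest p this design allows is 0.00357.

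What either gene does as a standard was then read from the same counts, by scaling every library to its ACTB count alone or to its GAPDH count alone in place of TMM. The tests were otherwise the same. Such scaling shifts every gene alike by about the difference of the standard itself. It also carries the spread of the standard between libraries into every gene. The moves of the calls below thus follow from the levels and fold changes given above and are no separate evidence. They show how many genes the shift and that spread together carry across the threshold.
In the pairs with muscle most calls lay in the direction opposite to the difference of the standard. In M against O, TMM called 3847 genes higher in M and 4316 higher in O. Scaling to ACTB called 7895 and 1417, and scaling to GAPDH called 270 and 12395, which was 98.4% of the genes tested. The median log2 fold change of all genes moved from -0.06 with TMM to 1.20 with ACTB and -4.38 with GAPDH.
M against I and M against S showed the same pattern. In M against I the calls higher in M and in I were 3730 and 3711 with TMM, 8550 and 668 with ACTB, and 238 and 11846 with GAPDH. In M against S they were 3875 and 4097 with TMM, 7287 and 1393 with ACTB, and 306 and 12155 with GAPDH. Without the library labelled muscle replicate 4, the calls higher in M and in the fat depot were 7780 and 1378 against O, 8457 and 650 against I, and 7111 and 1326 against S with ACTB. With GAPDH they were 276 and 12538, 243 and 12059, and 314 and 12315.
Between fat depots that involve I, both standards moved the split of calls away from I. In O against I, TMM called 2035 genes higher in O and 2280 higher in I, against 4790 and 904 with ACTB and 6026 and 634 with GAPDH. In I against S, 2295 genes were higher in I and 1985 in S with TMM, 857 and 5570 with ACTB, and 947 and 3691 with GAPDH.
In O against S both standards called more genes higher in O than in S, by a small margin with ACTB. TMM called 260 genes higher in O and 171 higher in S, ACTB 131 and 125, and GAPDH 428 and 43.

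**Figure D5:**
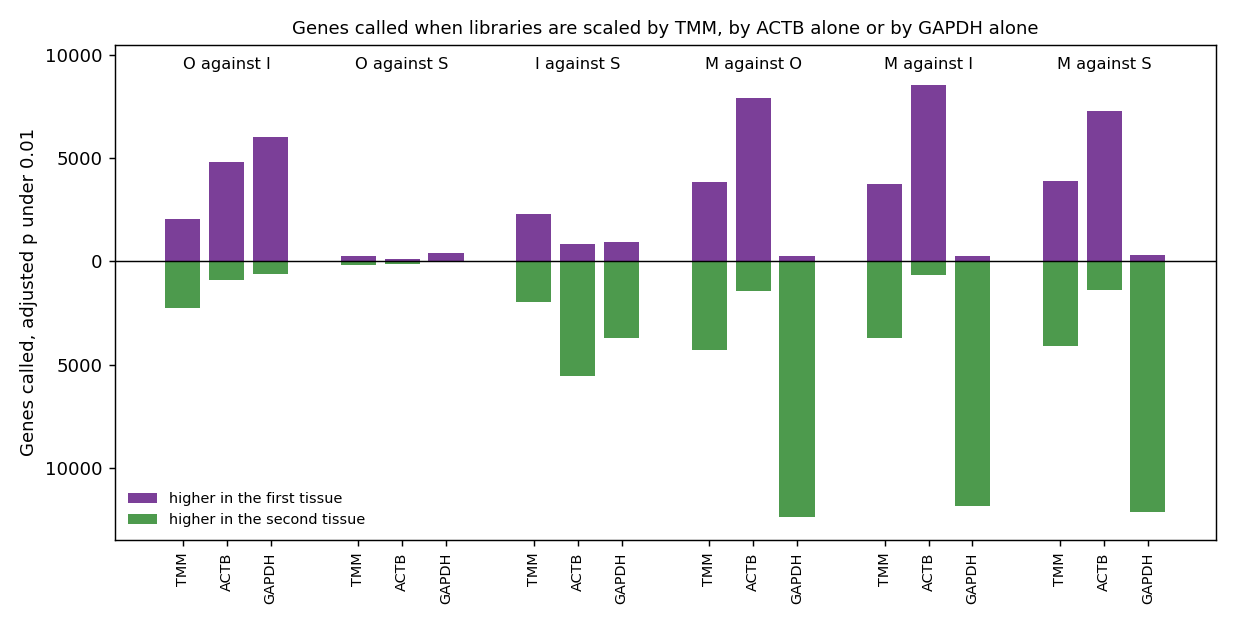
Genes called at an adjusted p under 0.01 in each pair of tissues (number of genes, upward where higher in the first tissue and downward where higher in the second), with libraries scaled by TMM, by the ACTB count alone or by the GAPDH count alone. In the 3 pairs with muscle, GAPDH scaling leaves 238 to 306 genes above 0 and 11846 to 12395 below.

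The primer list also holds 29 target genes. Their mean log2 difference between depots was computed from the counts with 0.5 added, as a description without a test. Scaling to ACTB moved every gene by 0.47 in O against I, by -0.10 in O against S and by -0.57 in I against S, and scaling to GAPDH by 0.69, 0.27 and -0.42.
Few target genes changed sign among fat depots. In O against I these were TBX5, a T-box transcription factor, from -0.23 with TMM to 0.23 with ACTB and 0.46 with GAPDH, and with GAPDH alone also CYP17A1, a steroid hydroxylase, from -0.57 to 0.12, and EN1, a homeobox factor, from -0.53 to 0.16. TBX5 and CYP17A1 did not pass the filter on low counts in this pair, and EN1 was not called there (adjusted p = 0.426, edgeR). In I against S it was SLPI, a secreted protease inhibitor, from 0.28 with TMM to -0.29 with ACTB and -0.15 with GAPDH, and it too did not pass the filter. In O against S there was none.
In O against I the shift widened differences of genes higher in O and narrowed those of genes higher in I. FASN was 2.15 with TMM, 2.62 with ACTB and 2.85 with GAPDH, and DGAT2 was 2.11, 2.58 and 2.80. PPP1R3C, a regulator of glycogen synthesis, was -2.56, -2.09 and -1.86, TPM2 -3.17, -2.71 and -2.48, and SLPI -2.44, -1.97 and -1.75. SLPI did not pass the filter on low counts in this pair.
In the muscle pairs, which were added after the data were seen, a target's log2 difference by ACTB and by GAPDH lay 5.59, 5.36 and 5.22 apart. The sign differed between the 2 standards for 11 of 29 targets in M against O, 14 in M against I and 10 in M against S, and for 11, 15 and 10 without the library labelled muscle replicate 4. Most of these targets did not pass the filter on low counts. In M against O these were CYP17A1, LHX8, MFSD2A, SLPI, TBX5 and TNMD. In M against I they were BDNF, CCR2, CYP17A1, ISL1, LHX8, TBX5, TCF21 and UCP1. In M against S they were IGF2BP2, ISL1, STRA6, TCF21, TNMD and UCP1. PPP1R3C was 2.61 with TMM in M against O, 3.78 with ACTB and -1.81 with GAPDH. DGAT2 was lower in M with all 3 scalings, at -5.55, -4.38 and -9.97, and TPM2 higher, at 7.67, 8.84 and 3.25.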

How the data were processed

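Paired-end reads of poly(A) RNA were mapped by the authors to the bovine genome bosTau6 with TopHat2 2.0.2. HTSeq 0.5.3p3 then gave a count for each Ensembl gene, and the deposited values are raw counts, 1 table per library, without normalization. The strand setting is not given in the sources used here. The 5 lines of each table that name no gene, 63.3% to 71.1% of all counts, stayed out of library sizes and tests.

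The software was edgeR 4.0.16 and DESeq2 1.42.0 in R 4.3.3, and scipy 1.17.1 in Python 3.11.15. After filterByExpr (minimum count 10) and TMM scaling, tissues were compared by the quasi-likelihood test at an FDR under 0.01. The fit was tried on simulated counts for O against S and M against O. Few genes were changed in them, whereas most genes were called in the muscle pairs, so they do not test the scaling there. SEs are the absolute log2 fold change over the square root of F. Log2 CPM used a prior count of 2. In all 128 pairs of libraries of the same tissue, counts differed by more than sampling noise (chi-square over its degrees of freedom of at least 12.7).

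The genes and lists were chosen with earlier results of these data known. Named genes are the 2 reference genes, the 2 most like each, the 2 steadiest, and the other primer genes as targets. Names were at hand for 31 identifiers, those of the primer list, so lists of glycolysis, actin and other standard genes, and gene lengths and coordinates, were not used here. Replicate numbers pair the samples because the labels give the same animal. The correlation of deviations from the tissue mean between libraries of the same animal had a median of 0.46 in O and S, with 9 of 9 animals over 0.1. The median was 0.10 in O and I (4 of 8 animals over 0.1), 0.21 in I and S (5 of 8) and 0.15 in M and O (5 of 8). It was 0.30 in M and I (5 of 7) and 0.03 in M and S (3 of 8). For libraries of different animals the median was -0.043 to -0.0056 in the other pairs, and 0.045 in M and S. The check thus did not bear out the pairing in M and S, and only in O and S did it do so in every animal. In I and S the lowest value of the same animal was -0.34. Alternatives were other scalings, no filter, the likelihood ratio test, DESeq2, the replicate block, sex as a covariate, a single fit over 4 tissues, animals with all 4 tissues, and each animal left out. The muscle fits without replicate 4 or 8 and the fits without I replicates 4 and 5 were added after the data were seen.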

Additional observations from a re-analysis of the deposited data

Results flagged for a closer look

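ACTB in muscle replicate 8 was 2743 CPM, against 830 to 1693 CPM in the other 7 muscle libraries. Its gap to the next library was 0.549 of the range of the group, above the critical value of Dixon's test for 8 libraries. This was the only value set apart among 12 groups tested (ACTB, GAPDH and their ratio in 4 tissues), where chance sets apart about 1 group in 20. In the same library GAPDH was 5887 CPM, inside the range of muscle. TPM2 was 28955 CPM, inside the range of the other muscle libraries, and DUSP27 was the lowest of muscle at 410 CPM against 449 to 814. The summed myeloid markers were the highest at 35.6 CPM against 5.20 to 30.9. Of these markers only CD163 was the highest, at 33.4 CPM against 4.04 to 27.2. ITGAM, at 2.16 CPM, was inside the 0.416 to 2.92 of the other muscle libraries, and CCR2 was 0. The adipocyte markers FASN and DGAT2, at 59.0 and 20.8 CPM, were not raised, the latter being the lowest of muscle. The library also stood apart among the 8 muscle libraries in other measures. It had the fewest counts on genes (3726376), the highest share of counts on no gene (69.4%), the highest share of reads with more than 1 place (14.5%, against 7.97% to 11.3%) and the highest TMM factor (0.747, against 0.524 to 0.642). The part of any of these in the ACTB level was not tested.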

How the results depend on the processing

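The 6 calls of ACTB and GAPDH against muscle, and the 3 muscle differences in their ratio, kept direction and call under every alternative run, and the replicate block changed no call other than that of ACTB in I against S. For ACTB in I against S (0.61 on the log2 scale), the call was lost with the library total alone (0.43), upper quartile scaling (0.50), scaling to GAPDH (0.18), no filter (0.59), the replicate block (0.60), sex as a covariate (0.62), a single fit over 4 tissues (0.61) animals with all 4 tissues (0.69) and without I replicates 4 and 5 (0.41), and leaving out an animal gave 0.48 to 0.70. GAPDH in O against I lost its call with the library total alone (-0.53) and with scaling to ACTB (-0.26), and leaving out an animal gave -0.79 to -0.65. ACTB in O against I was called with the likelihood ratio test (-0.51) and DESeq2 (-0.51) and turned to 0.19 with scaling to GAPDH. GAPDH in I against S turned to -0.11 with scaling to ACTB. The ratio in O against I passed as a difference of medians (-0.31) and without I replicates 4 and 5 (-0.36). Leaving out an animal gave -0.29 to -0.18, which passed only without replicate 4. Genes called in O against S (431) numbered 256 with scaling to ACTB, 743 with the likelihood ratio test, 814 with DESeq2, 1067 with the replicate block and 271 with animals that have all 4 tissues, and 271 (without replicate 5 or 9) to 428 with an animal left out. Scaling to GAPDH called 6660 genes in O against I, 12665 in M against O, 12084 in M against I and 12461 in M against S (12814, 12302 and 12629 without the library labelled muscle replicate 4), and scaling to ACTB called 6427 in I against S. With the library total alone, calls were split 3358 higher in O and 1645 in I, 1730 in I and 3152 in S, 1564 in M and 8039 in O, 1678 in M and 6634 in I, and 1630 in M and 7709 in S. Of the relations across animals, that of ACTB in O and I turned to r = 0.19 with the library total alone, and that of ACTB in M and S from -0.14 (also without the library labelled muscle replicate 4, at -0.14) to r = 0.59 without muscle replicate 8, none passing adjustment. The cause of these changes was not tested. Spread between libraries, not counting, limited the precision. With a single library per animal and tissue, spread between animals cannot be told apart from other spread between libraries.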
